A study of Mus musculus with 12 samples.

Results

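The genes described here are 10 outputs of the circadian clock: *Per1*, *Per2* and *Per3* (period genes), *Cry1* and *Cry2* (cryptochromes), *Dbp*, *Tef* and *Hlf* (PAR bZIP transcription factors), and *Nr1d1* and *Nr1d2* (the REV-ERB nuclear receptors). They were listed by gene symbol, without a cut on any measured value, but with earlier results of these data known. All 10 were found among the 22479 genes listed for lung and the 22562 listed for spleen. RNA was sequenced from lung and spleen of 3 β3-/- mice (ITGB3 KO in the sample labels) and 3 WT mice, with 1 library per mouse and tissue. The β3-/- mice carry a constitutive knockout on the C57BL/6 background and were a gift, and the WT mice were purchased C57BL/6 animals. Mice of both genotypes were 8 to 10 weeks old. The methods state isoflurane anesthesia before all procedures and name no other treatment. Values are FPKM, fragments scaled by transcript length and library size, and lung and spleen values were joined by genotype and mouse number, since the methods state that both tissues came from the same animals. The hour at which tissue was taken, on which the level of every clock output depends, is not given in the sources used here, so the hour and the genotype cannot be told apart.

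In the mammalian clock, CLOCK and BMAL1 bind E-boxes and switch on the *Per*, *Cry*, *Nr1d* and PAR bZIP genes. PER and CRY proteins return to the nucleus and repress CLOCK and BMAL1, which closes the main loop, and the REV-ERB receptors repress *Bmal1*, which closes a second loop. DBP, TEF and HLF activate genes through D-boxes, where NFIL3 acts as their repressor. The loop runs in nearly every cell, and in lung and spleen it is known to time the traffic of leukocytes and the response to microbial products.

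In GRCm39 the 10 genes lie on 8 chromosomes. *Per1* (ENSMUSG00000020893), *Hlf* (ENSMUSG00000003949) and *Nr1d1* (ENSMUSG00000020889) share chromosome 11, at 68986035 to 69002300, 90227221 to 90281761 and 98658752 to 98666188. *Per2* (ENSMUSG00000055866) lies on chromosome 1 at 91343700 to 91387069, *Cry2* (ENSMUSG00000068742) on chromosome 2 at 92233894 to 92264474, and *Per3* (ENSMUSG00000028957) on chromosome 4 at 151081373 to 151129140. *Dbp* (ENSMUSG00000059824) lies on chromosome 7 at 45354512 to 45359627, *Cry1* (ENSMUSG00000020038) on chromosome 10 at 84967560 to 85021252, *Nr1d2* (ENSMUSG00000021775) on chromosome 14 at 4230545 to 4266624, and *Tef* (ENSMUSG00000022389) on chromosome 15 at 81686622 to 81711064.

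The elements through which the loop acts were searched for before annotated starts. RefSeq promoter sequences (table of build GRCm38.p6) were matched for 9 of the 10 genes, in 11 start sites, and the 250 bases before each start were searched on both strands and placed on GRCm39 by exact match; *Per2* has no entry in that table. The E-box CACGTG was found in 4 of the 11 windows (*Per1*, *Cry1* and both starts of *Tef*), against 6.02% of the 32851 windows of the whole table. The variant E-box CACGTT was found in 3 (*Cry1*, *Cry2* and *Nr1d1*), against 3.85%. The D-box, TTATGTAA or TTACGTAA, was found in 1, which held it at 2 positions (*Per3*, against 0.932% of all windows). The RORE (AANT directly followed by AGGTCA), to which REV-ERB and ROR receptors bind, was found in 0 windows of these genes and in 0.177% of all windows. The sites are given below because they are the letters shared by genes whose levels are compared later. Each run is 30 bases, 5′ to 3′ on the strand of the gene, with the motif in capitals (AACGTG is CACGTT read on the other strand).
*Per1* E-box, chr11:68989597-68989626, plus strand: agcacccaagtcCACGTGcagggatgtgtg
*Cry1* E-box, chr10:85020961-85020990, minus strand: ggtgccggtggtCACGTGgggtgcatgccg
*Tef* E-box of the first start, chr15:81686735-81686764, plus strand: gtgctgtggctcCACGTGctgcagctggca
*Tef* E-box of the second start, chr15:81695465-81695494, plus strand: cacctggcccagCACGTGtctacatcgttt
*Cry1* variant E-box, chr10:85020980-85021009, minus strand: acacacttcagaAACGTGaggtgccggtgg
*Cry2* variant E-box, chr2:92264563-92264592, minus strand: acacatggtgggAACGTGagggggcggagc
*Nr1d1* variant E-box, chr11:98666214-98666243, minus strand: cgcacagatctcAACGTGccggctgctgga
*Per3* distal D-box, chr4:151129309-151129338, minus strand: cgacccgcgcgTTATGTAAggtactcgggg
*Per3* proximal D-box, chr4:151129262-151129291, minus strand: cccgcccgcggTTATGTAAcccccgccgtg
A match says only that these letters lie in the window. Some windows do not lie upstream of the gene. The 2 starts of *Per1* lie 3740 and 4943 bases past the start of the GENCODE gene, and the second start of *Tef* 8993 bases past it. The start of *Cry1* lies 334 bases and the first start of *Tef* 252 bases past it. All 4 windows with the E-box CACGTG thus lie within the annotated gene. The sites of *Per1*, *Cry1*, *Nr1d1*, the first start of *Tef* and the distal site of *Per3* lie wholly in GENCODE exons (30 of 30 bases, exons of any gene on either strand). The variant and the canonical E-box of *Cry1* begin 79 and 60 bases before the start, and the D-boxes of *Per3* begin 205 and 158 bases before it.

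The labels were checked first. *Itgb3*, the disrupted gene, had 1.94, 1.34 and 1.29 FPKM in β3-/- lungs, against 3.68, 4.39 and 4.14 FPKM in WT lungs, and 3.57, 4.02 and 3.52 FPKM in β3-/- spleens, against 10.6, 8.95 and 8.50 FPKM in WT spleens. Its log2 difference was -1.38 in lung (limma adjusted p = 0.064) and -1.31 in spleen (limma adjusted p = 0.0055). The summed alveolar epithelial markers lay between 17332 and 28891 FPKM in the lungs and between 16.7 and 23.2 FPKM in the spleens. Y-linked transcripts were listed at 0 in all 6 β3-/- libraries and were read in all 6 WT libraries, so sex and the source of the mice cannot be told apart from genotype. Lung libraries fell on either side of a gap in *Ubb*, a ubiquitin gene, with 678 FPKM in β3-/- mouse 3 and 570 and 688 FPKM in WT mice 1 and 2, against 4.52 to 4.97 FPKM in the other 3 lungs. The spleens of β3-/- mouse 2 and WT mouse 2 held pancreatic acinar transcripts (217 and 2040 FPKM summed over 10 markers, against 17.9 to 26.1 in the other spleens). Adipocyte markers summed to 96.5, 23.1 and 177 FPKM in β3-/- spleens, against 34.0, 8.10 and 3.16 FPKM in WT spleens. Of 5 tested, 0 passed an adjusted p of 0.05 in limma. All 5 were higher at an unadjusted p under 0.05, as 9.67% of all genes were. Cardiac muscle markers in lung ran from 60.6 to 305 FPKM. The part of such tissue in the clock values was not tested. The depth of the libraries is unknown, since the files hold no counts.

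**Figure D1:**
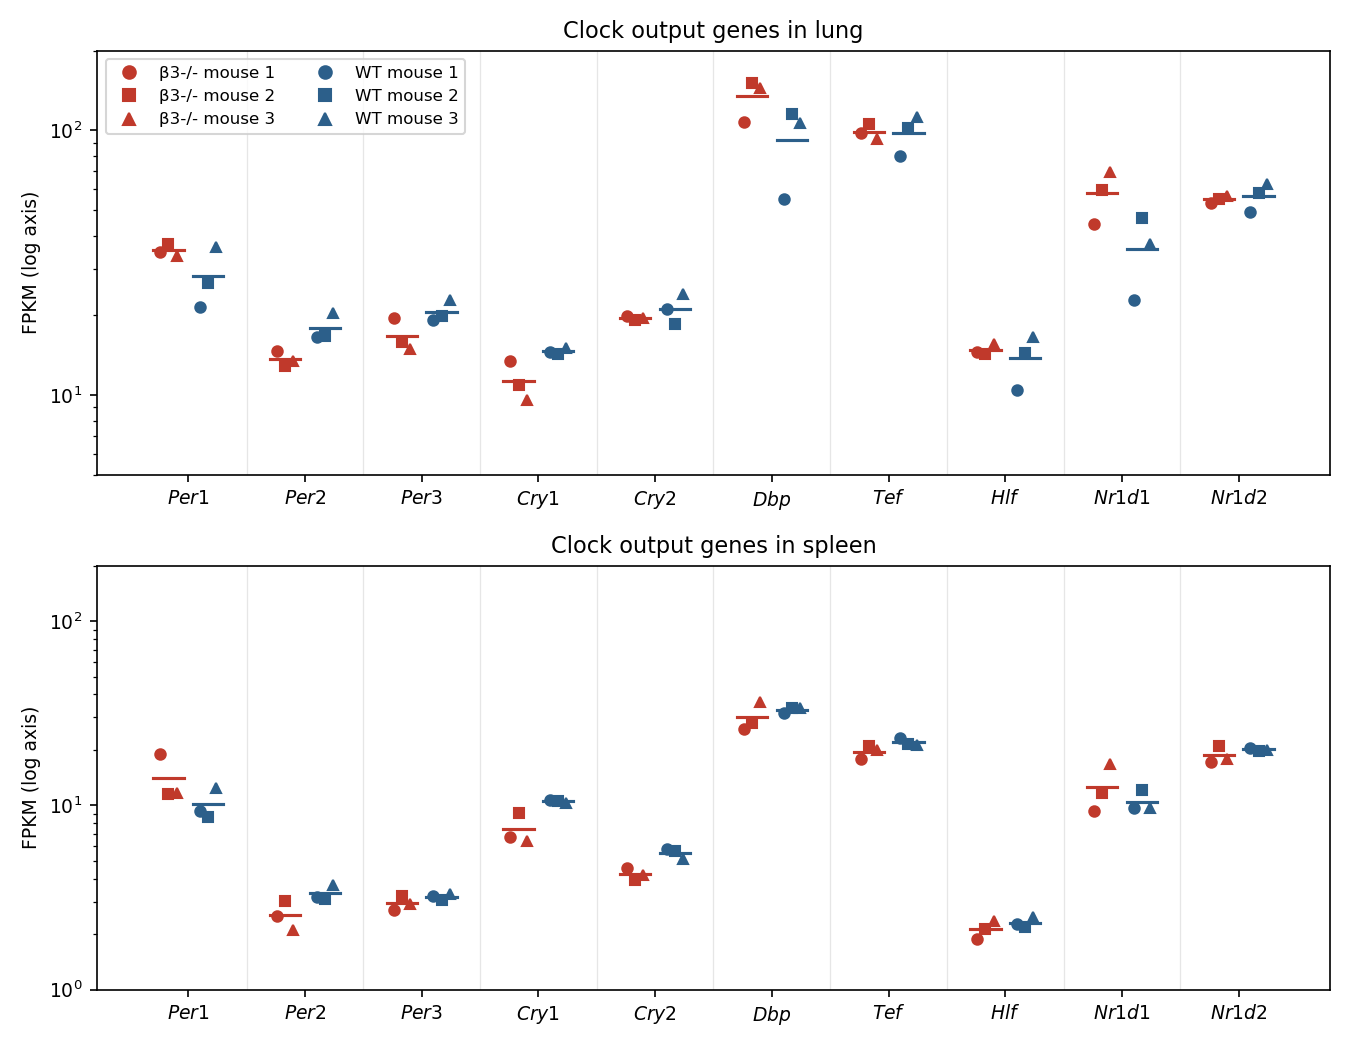
FPKM of each clock output gene (log axis) in lung (top) and spleen (bottom). Each point is 1 library, β3-/- left and WT right of each gene, the marker shape gives the mouse number, and the horizontal lines are group means. *Dbp* and *Tef* lead in lung, *Hlf* is the lowest of the genes in spleen, and WT mouse 1 is the lowest lung for 6 of the 10 genes.

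All 10 clock outputs were higher in lung than in spleen. The log2 difference (on log2 of FPKM plus 0.1, limma over all 12 libraries) ran from 0.54 for *Cry1* to 2.63 for *Hlf*, with a median of 2.00, and the adjusted p ranged from 1.3e-10 to 0.00044. Of all 16312 genes tested, 38% passed as higher in lung, and their median difference between lung and spleen was -0.04. Lung exceeded spleen in 6 of 6 mice for every one of the 10 genes. The lung and spleen values did not overlap for 9 of them, *Cry1* being the exception (9.57 to 15.1 FPKM in lung and 6.41 to 10.7 FPKM in spleen).

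Of the PAR bZIP factors, *Dbp* and *Tef* were the most abundant outputs in lung by their means. *Dbp* had 108, 150 and 145 FPKM in β3-/- lungs, against 54.9, 115 and 107 FPKM in WT lungs, and 26.0, 27.8 and 36.2 FPKM in β3-/- spleens, against 31.6, 33.9 and 34.0 FPKM in WT spleens. *Tef* had 98.0, 106 and 92.6 FPKM in β3-/- lungs, against 80.2, 102 and 112 FPKM in WT lungs, and 17.9, 21.0 and 19.9 FPKM in β3-/- spleens, against 23.1, 21.6 and 21.3 FPKM in WT spleens. *Hlf*, the third factor of the family, was far below its relatives in both tissues, with 14.6, 14.3 and 15.6 FPKM in β3-/- lungs, against 10.5, 14.4 and 16.6 FPKM in WT lungs. In spleen it had 1.89, 2.14 and 2.36 FPKM in β3-/- mice, against 2.26, 2.20 and 2.48 FPKM in WT mice. The lung to spleen ratio of *Hlf* was 4.63 to 7.69 within the 6 mice, close to that of *Per3* (4.94 to 7.16), whereas that of *Dbp* ran from 1.74 in WT mouse 1 to 5.41 in β3-/- mouse 2.

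In lung the REV-ERB genes came next by their means. *Nr1d1* had 44.4, 59.6 and 69.6 FPKM in β3-/- lungs, against 22.9, 46.5 and 37.1 FPKM in WT lungs, and 9.38, 11.7 and 16.7 FPKM in β3-/- spleens, against 9.64, 12.1 and 9.65 FPKM in WT spleens. β3-/- mouse 3 was the highest of the 6 mice in both tissues, and the genotypes overlapped in both. *Nr1d2* varied less, with 53.2, 55.1 and 56.8 FPKM in β3-/- lungs, against 49.2, 57.9 and 62.9 FPKM in WT lungs, and 17.1, 21.1 and 17.9 FPKM in β3-/- spleens, against 20.6, 19.9 and 19.9 FPKM in WT spleens. The coefficient of variation of *Nr1d1* was 21.9% in β3-/- lungs and 33.4% in WT lungs, and that of *Nr1d2* was 3.27% in β3-/- lungs and 12.2% in WT lungs.

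Of the period genes, *Per1*, which is also induced by glucocorticoids, was the highest in both tissues. It had 34.8, 37.2 and 33.6 FPKM in β3-/- lungs, against 21.5, 26.5 and 36.2 FPKM in WT lungs, and 19.0, 11.5 and 11.6 FPKM in β3-/- spleens, against 9.34, 8.61 and 12.4 FPKM in WT spleens. *Per2*, the partner of the cryptochromes in the repressor complex, had 14.6, 12.9 and 13.5 FPKM in β3-/- lungs, against 16.6, 16.7 and 20.4 FPKM in WT lungs. In spleen *Per2* had 2.52, 3.05 and 2.11 FPKM in β3-/- mice, against 3.19, 3.12 and 3.70 FPKM in WT mice. The 3 β3-/- values of *Per2* were below the 3 WT values in both tissues. *Per3*, an accessory period gene, had 19.5, 15.9 and 14.9 FPKM in β3-/- lungs, against 19.2, 19.9 and 23.0 FPKM in WT lungs, and 2.72, 3.21 and 2.93 FPKM in β3-/- spleens, against 3.23, 3.08 and 3.30 FPKM in WT spleens.

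The cryptochromes differed in how tissue specific they were. *Cry1*, the stronger repressor of CLOCK and BMAL1, had 13.5, 10.9 and 9.57 FPKM in β3-/- lungs, against 14.6, 14.4 and 15.1 FPKM in WT lungs, and 6.76, 9.13 and 6.41 FPKM in β3-/- spleens, against 10.7, 10.5 and 10.3 FPKM in WT spleens. The genotypes did not overlap in either tissue, and the WT mice were close to each other (coefficient of variation 2.50% in WT lungs and 1.99% in WT spleens, against 17.6% in β3-/- lungs and 19.9% in β3-/- spleens, each over 3 mice). *Cry2* had 19.9, 19.2 and 19.6 FPKM in β3-/- lungs, against 21.1, 18.6 and 24.0 FPKM in WT lungs, where the genotypes overlapped. In spleen it had 4.56, 3.93 and 4.20 FPKM in β3-/- mice, against 5.77, 5.64 and 5.12 FPKM in WT mice, where they did not. *Cry2* was 4.15-fold higher in lung than in spleen and *Cry1* 1.45-fold, so *Cry1* stood below *Cry2* in lung and above it in spleen.

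FPKM is scaled by length, so the outputs can be ordered within a tissue. In β3-/- lungs the order of means was *Dbp* (134 ± 23.1 FPKM, SD), *Tef* (98.8 ± 6.55), *Nr1d1* (57.9 ± 12.7), *Nr1d2* (55.0 ± 1.80), *Per1* (35.2 ± 1.87), *Cry2* (19.6 ± 0.367), *Per3* (16.8 ± 2.41), *Hlf* (14.8 ± 0.673), *Per2* (13.7 ± 0.869) and *Cry1* (11.3 ± 1.99), n = 3 each. The ranges of *Nr1d1* and *Nr1d2* overlapped, as did those of every pair of neighbours from *Cry2* down. In WT lungs the order was *Tef*, *Dbp*, *Nr1d2*, *Nr1d1*, *Per1*, *Cry2*, *Per3*, *Per2*, *Cry1* and *Hlf*, with overlapping ranges between all neighbours except *Nr1d2* and *Nr1d1*, and *Per2* and *Cry1*. In spleen *Dbp* led in both genotypes (30.01 ± 5.47 FPKM in β3-/- mice and 33.1 ± 1.34 FPKM in WT mice, SD, n = 3 each) and did not overlap with *Tef*, the next gene, while *Hlf* was last (2.13 ± 0.233 FPKM in β3-/- mice and 2.31 ± 0.148 FPKM in WT mice). *Cry1* took place 6 in β3-/- spleens and place 4 in WT spleens, against place 10 in β3-/- lungs and place 9 in WT lungs. In WT spleens its range overlapped with that of *Nr1d1*, the next gene.

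The activating arm of the clock was set beside its outputs. Of 7 listed activators, 6 could be tested, 5 were higher in lung and 1, *Bmal1*, was lower in lung, as 40.5% of all genes were (median log2 difference 1.37, against -0.04 over all genes). *Bmal1*, the partner of CLOCK, had 2.01, 1.58 and 1.92 FPKM in β3-/- lungs and 2.00, 1.61 and 1.22 FPKM in WT lungs. In spleen it had 6.98, 7.201 and 5.50 FPKM in β3-/- mice and 7.25, 8.73 and 8.14 FPKM in WT mice. The log2 difference between lung and spleen was -2.03 (SE 0.13, limma adjusted p = 4.4e-08), and *Bmal1* was the lower one in lung in 6 of 6 mice, opposite to each of the 10 outputs. *Rora*, which encodes a receptor that competes with the REV-ERB receptors for the RORE, was higher in lung by 1.91 (SE 0.09) on the log2 scale, as was *Bmal2*, a relative of *Bmal1*, by 1.80 (SE 0.25). The cell types of the tissues differed too: 6 of 6 endothelial and 6 of 6 fibroblast markers were higher in lung (median log2 difference 3.43 and 1.37) and 8 of 8 B cell markers lower (-3.003), and their part in the levels of the clock genes was not tested. In bulk tissue, fewer cells of a type and less RNA per cell cannot be told apart.

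**Figure D2:**
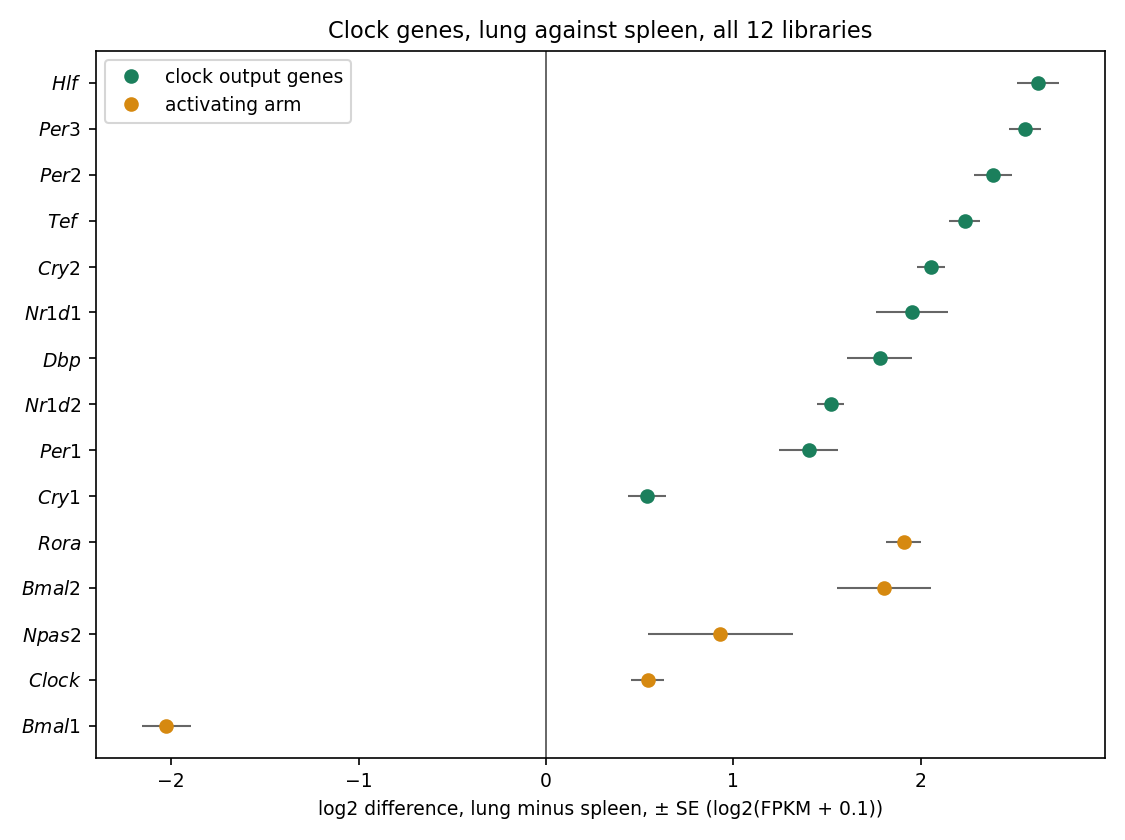
Log2 difference between lung and spleen, with its SE, for the 10 clock output genes (green) and 5 genes of the activating arm (orange), from 1 limma fit of 12 libraries. The 10 outputs lie between 0.54 and 2.63, and *Bmal1*, at -2.03, is the one plotted gene with a negative difference.

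Whether the loss of integrin β3 went with other levels of clock outputs was asked within each tissue. In lung, 0 of the 10 genes passed an adjusted p of 0.05 in limma. There 0.328% of 15869 genes passed, and *Itgb3* itself did not (limma adjusted p = 0.064). At an unadjusted p under 0.05 there were 4 of the 10, *Nr1d1* higher in β3-/- lungs (4.95% of all genes were so) and *Per2*, *Cry1* and *Per3* lower (7.7% of all genes were so). The largest differences on the positive side were those of *Nr1d1* (log2 difference 0.74, 95% interval 0.07 to 1.404, limma adjusted p = 0.35) and *Dbp* (0.60, -0.09 to 1.30, adjusted p = 0.46), and *Per1* stood at 0.36 (-0.07 to 0.78, adjusted p = 0.48). On the negative side were *Cry1* (-0.38, -0.70 to -0.07, adjusted p = 0.31), *Per2* (-0.38, -0.63 to -0.12, adjusted p = 0.24) and *Per3* (-0.31, -0.60 to -0.01, adjusted p = 0.38). *Cry2*, *Tef*, *Hlf* and *Nr1d2* lay between -0.11 and 0.13, with adjusted p of 0.73 to 0.97. Over the 10 genes the median was -0.01, against -0.02 over all genes tested. *Per2* and *Cry1* had β3-/- values wholly below WT values, as 12.6% of all genes did, and 0 of the 10 had them wholly above, as 6.86% of all genes did.

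The positive differences in lung drew on WT mouse 1, which was the lowest lung for *Per1*, *Dbp*, *Tef*, *Hlf*, *Nr1d1* and *Nr1d2*. Without it the log2 difference was lowered by more than 1.5 times for all 3 genes on the positive side, to 0.18 for *Per1*, 0.26 for *Dbp* and 0.45 for *Nr1d1*. WT mouse 3 was the highest lung for 7 of the 10 genes, and without it *Per1* stood at 0.55 (limma adjusted p = 0.22). Within the libraries with high *Ubb* (1 β3-/- and 2 WT lungs) the log2 difference of *Nr1d1* was 1.09 and that of *Dbp* 0.87, and within those with low *Ubb* (2 β3-/- lungs and 1 WT lung) they were 0.47 and 0.26. *Per1* differed by 0.49 in the libraries with high *Ubb* and by -0.01 in those with low *Ubb*. The differences were -0.59 and -0.31 for *Cry1*, -0.30 and -0.56 for *Per2*, and -0.39 and -0.38 for *Per3* (high and low *Ubb*). Each of these values has 1 library on one side and so no replicate check. Summed erythroid markers ranged from 7247 to 10792 FPKM in β3-/- lungs and from 3198 to 4814 FPKM in WT lungs (1 of 6 higher in β3-/- lungs, as 0.296% of all genes were). Summed platelet markers ranged from 61.3 to 84.7 FPKM in β3-/- lungs and from 38.1 to 44.8 FPKM in WT lungs (1 of 5 higher). Of 7 T cell markers 0 passed, with 6 higher in β3-/- lungs at an unadjusted p under 0.05 (summed 66.2 to 73.7 FPKM in β3-/- lungs and 43.2 to 62.7 FPKM in WT lungs), while 0 of 6 endothelial, 0 of 6 fibroblast and 0 of 6 alveolar epithelial markers passed, nor did any of 6 neutrophil, 6 macrophage or 8 B cell markers. Their part in the lung values was not tested.

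In spleen, again 0 of the 10 genes passed, where 9.05% of 15480 genes passed in limma. *Cry1* came closest (log2 difference -0.51, 95% interval -0.86 to -0.17, limma adjusted p = 0.064), then *Cry2* (-0.37, -0.67 to -0.08, adjusted p = 0.085), and these were the 2 genes at an unadjusted p under 0.05, both lower in β3-/- spleens, as 26.3% of all genes were. On the higher side there were 0 of the 10, against 9.67% of all genes. *Per2* stood at -0.38 (adjusted p = 0.16), *Tef* at -0.17 (adjusted p = 0.24), *Per1* at 0.45 (adjusted p = 0.19) and *Nr1d1* at 0.23 (adjusted p = 0.45). The spleen of β3-/- mouse 1 was the lowest for *Per3*, *Dbp*, *Tef*, *Hlf*, *Nr1d1* and *Nr1d2* and the highest for *Per1*. Without it *Per1* stood at 0.21, *Nr1d1* at 0.42 and *Tef* at -0.11, and without β3-/- mouse 3 *Nr1d1* stood at 0.0097. *Dbp*, *Per3*, *Hlf* and *Nr1d2* lay between -0.16 and -0.11. The β3-/- values were wholly below the WT values for *Per2*, *Cry1*, *Cry2* and *Tef*, 4 of 10, where 32% of all genes were so, and wholly above for 0, where 11.4% were so.

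The spleen values have to be read against a shift of the whole library. The median log2 difference of all genes in spleen was -0.16, and it was -0.36 after rescaling to TPM and 0.00 after median-of-ratios scaling. Relative to the median of all genes, *Cry1* stood at -0.35, *Per2* at -0.22 and *Cry2* at -0.21 in spleen, *Per1* at 0.61 and *Nr1d1* at 0.40, and the other 5 genes between -0.01 and 0.05. Rescaled to TPM, 4 of the 10 passed (*Per2*, *Cry1*, *Cry2* and *Tef*, log2 differences of -0.37 to -0.72), together with 5345 lower and 713 higher genes, against 834 lower and 567 higher genes in FPKM and 189 lower and 512 higher genes with median-of-ratios scaling. *Cry1* also passed with library weights (adjusted p = 0.041), with all 12 libraries in 1 fit (0.032) and without β3-/- mouse 2 (0.016), and its adjusted p ranged from 0.016 to 0.19 over 19 alternatives. Summed erythroid markers ranged from 41482 to 81434 FPKM in β3-/- spleens and from 4983 to 19719 FPKM in WT spleens, with 6 of 6 higher in β3-/- spleens. Summed B cell markers ranged from 1173 to 1716 FPKM in β3-/- spleens and from 2183 to 2300 FPKM in WT spleens, with 5 of 8 lower (of all genes, 3.66% passed as higher and 5.39% as lower), and no marker of either list was at 0. Platelet markers passed as higher in 3 of 5 cases (300 to 1371 FPKM summed in β3-/- spleens and 115 to 180 FPKM in WT spleens), macrophage markers in 2 of 6 (407 to 461 FPKM in β3-/- spleens and 316 to 354 FPKM in WT spleens) and neutrophil markers in 1 of 6 (514 to 2978 FPKM in β3-/- spleens and 281 to 361 FPKM in WT spleens). Of 7 T cell markers 0 passed, with 5 lower in β3-/- spleens at an unadjusted p under 0.05. Their part in the differences of the clock outputs was not tested.

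**Figure D3:**
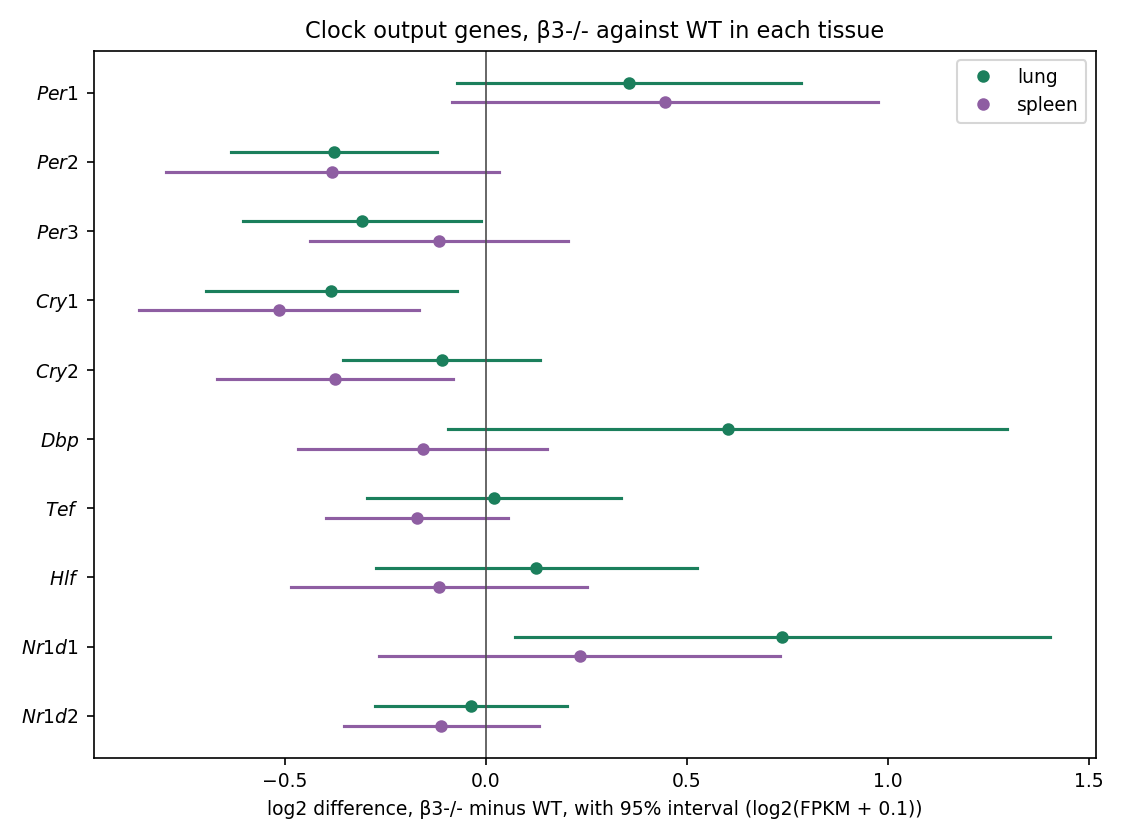
Log2 difference between β3-/- and WT mice for each clock output gene, with its 95% interval, in lung (green, upper) and spleen (purple, lower). *Cry1* and *Per2* lie left of 0 in both tissues, at -0.38 in lung and -0.51 and -0.38 in spleen, and *Nr1d1* and *Dbp* have the widest intervals in lung.

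When each mouse was taken as 1 value, the mean of its lung and spleen on the log2 scale, 0 of the 10 genes passed in limma, where 3.37% of 14445 genes did. *Cry1* had a log2 difference of -0.45 (95% interval -0.69 to -0.21, limma adjusted p = 0.058), *Per2* of -0.38 (-0.64 to -0.12, adjusted p = 0.085) and *Cry2* of -0.24 (-0.42 to -0.06, adjusted p = 0.10). At an unadjusted p under 0.05, *Cry1*, *Per2*, *Cry2* and *Per3* were lower in β3-/- mice, as 19.9% of all genes were, and *Per1* was higher (0.40, adjusted p = 0.17), as 8.38% of all genes were. *Cry1* passed with a filter at 1 FPKM (adjusted p = 0.045), after rescaling to TPM (0.020), with library weights (0.049) and without β3-/- mouse 2 (0.048). Rescaled to TPM, *Per2*, *Per3* and *Cry2* passed as well. The shift of the median gene was -0.09 here, -0.22 after rescaling to TPM and 0.01 after median-of-ratios scaling, with 200 lower and 287 higher genes in FPKM, 3729 lower and 473 higher in TPM, and 62 lower and 332 higher with median-of-ratios scaling.

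The genotype difference was then compared between the tissues, as the difference in lung minus that in spleen. In limma 0 of the 10 genes passed, where 0.417% of 16312 genes did. *Dbp* was the furthest apart, with 0.60 in lung and -0.16 in spleen on the log2 scale, a difference of 0.76 (95% interval 0.00 to 1.52, unadjusted p = 0.0499, adjusted p = 0.26). Over 16 alternatives it ran from 0.46, without WT mouse 1, to 1.10, with library weights. *Nr1d1* (0.50, adjusted p = 0.50) and *Cry2* (0.26, adjusted p = 0.36) followed among the positive ones, and *Nr1d1* ran from 0.27 without WT mouse 1 to 0.81 with library weights. For *Per2* the tissues differed by 0.00 (95% interval -0.44 to 0.45, adjusted p = 0.99) and for *Cry1* by 0.13 (-0.32 to 0.58, adjusted p = 0.77).

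Since both tissues came from the same animals, the level in lung could be set against that in spleen over 6 mice. An r of at least 0.8 was reached by 0 of the 10 genes, where 7.79% of 14445 genes reached it, and the median r was 0.27 for the 10 genes and 0.17 for all genes. The highest was that of *Nr1d1* (Pearson's r 0.75, exact permutation p = 0.090, adjusted p = 0.64 over all genes, and Spearman's rho 0.77, exact permutation p = 0.10, adjusted p = 0.69). Without β3-/- mouse 3 and WT mouse 1, the 2 mice farthest from the median in lung, r was 0.67, and on deviations from the genotype means it was 0.72. *Dbp*, which shares its phase with *Nr1d1* in most tissues, gave an r of 0.01 (exact permutation p = 0.99, rho 0.03, exact permutation p = 1), and 0.44 on deviations from the genotype means. Without β3-/- mouse 2 and WT mouse 1, the 2 mice farthest from its median in lung, its r was 0.58. *Per1* gave an r of 0.64 (exact permutation p = 0.16, rho 0.54, exact permutation p = 0.30), which was -0.24 without WT mice 1 and 2 and so rested on those mice.

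For *Per2* and *Cry1* the genotypes did not overlap in either tissue, so that r over all 6 mice (0.73 and 0.68) also holds the genotype difference. Both values enter the counts and the median r of the 10 genes. On deviations from the genotype means r was 0.24 for *Per2* and 0.00 for *Cry1*, a description with 3 mice per genotype. β3-/- mouse 3 was the lowest of the 6 for *Cry1* in both tissues, and WT mouse 3 the highest for *Per2* in both. Over the 10 genes, 5 had a positive r on deviations from the genotype means, and the median was 0.12, against 57.8% positive and a median of 0.13 over all genes. With 6 mice there are only 720 pairings to permute. The smallest adjusted p of any of the 14445 genes was 0.39 (exact permutation of Pearson's r), so that no gene was called. Without β3-/- mouse 1 the count at an r of 0.8 or more was 3 of 10, and it was 1 of 10 without β3-/- mouse 2 and also without WT mouse 1. The share of all genes at that r was not counted with 1 mouse left out. These counts therefore cannot be set against the share over 6 mice.

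**Figure D4:**
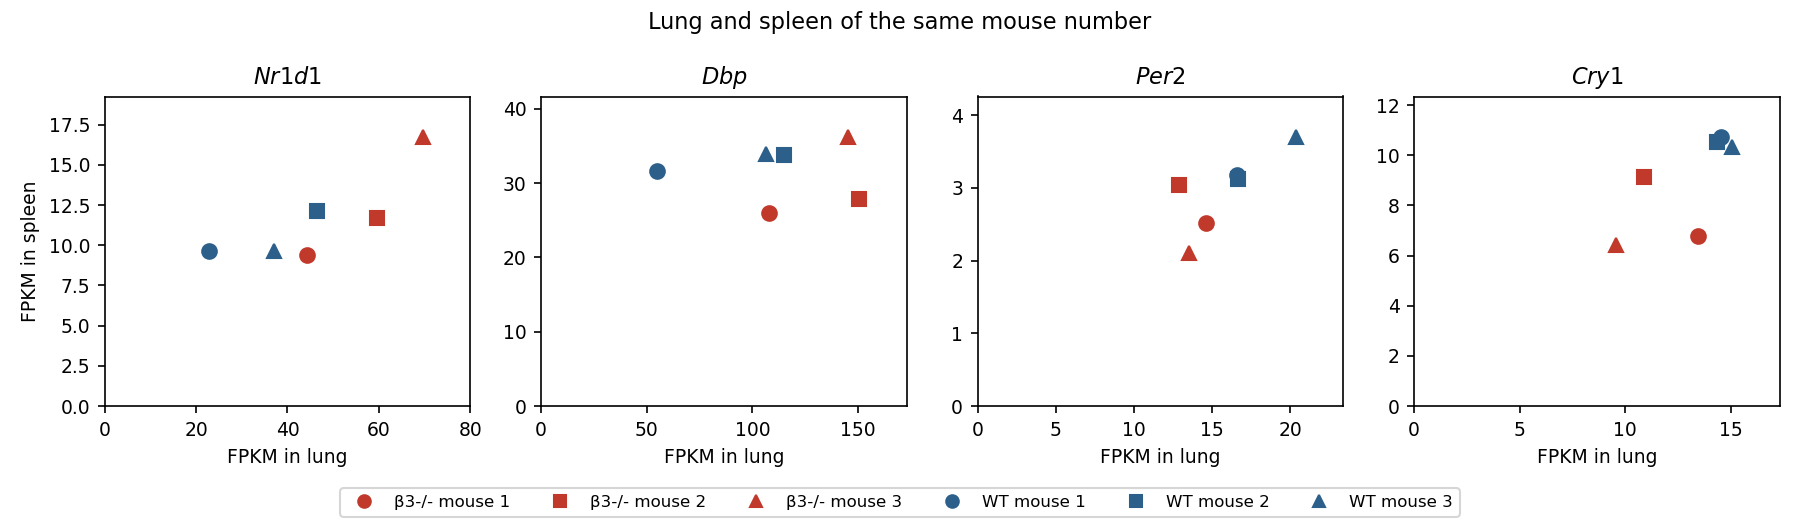
FPKM in lung (x) against FPKM in spleen (y) of the same mouse number for *Nr1d1*, *Dbp*, *Per2* and *Cry1*, with both axes from 0. Red points are the 3 β3-/- mice, blue points the 3 WT mice, and the marker shape gives the mouse number. For *Per2* and *Cry1* the red points lie below and left of the blue ones, while for *Nr1d1* β3-/- mouse 3 is the highest in both tissues.

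Some of the outputs varied together between libraries. On deviations from the mean of each tissue and genotype, over 12 libraries from 6 mice, the r of *Dbp* with *Nr1d1* was 0.91, with *Hlf* 0.84 and with *Tef* 0.72, and that of *Tef* with *Nr1d2* was 0.83. *Cry1* had an r of 0.78 with *Per3* and 0.66 with *Per2*, and of -0.34 with *Dbp* and -0.40 with *Nr1d1*. The r of *Cry2* with the other 9 genes lay between -0.26 and 0.39. The libraries of a mouse share their animal, and each r is given as a description of these 12 libraries.

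**Figure D5:**
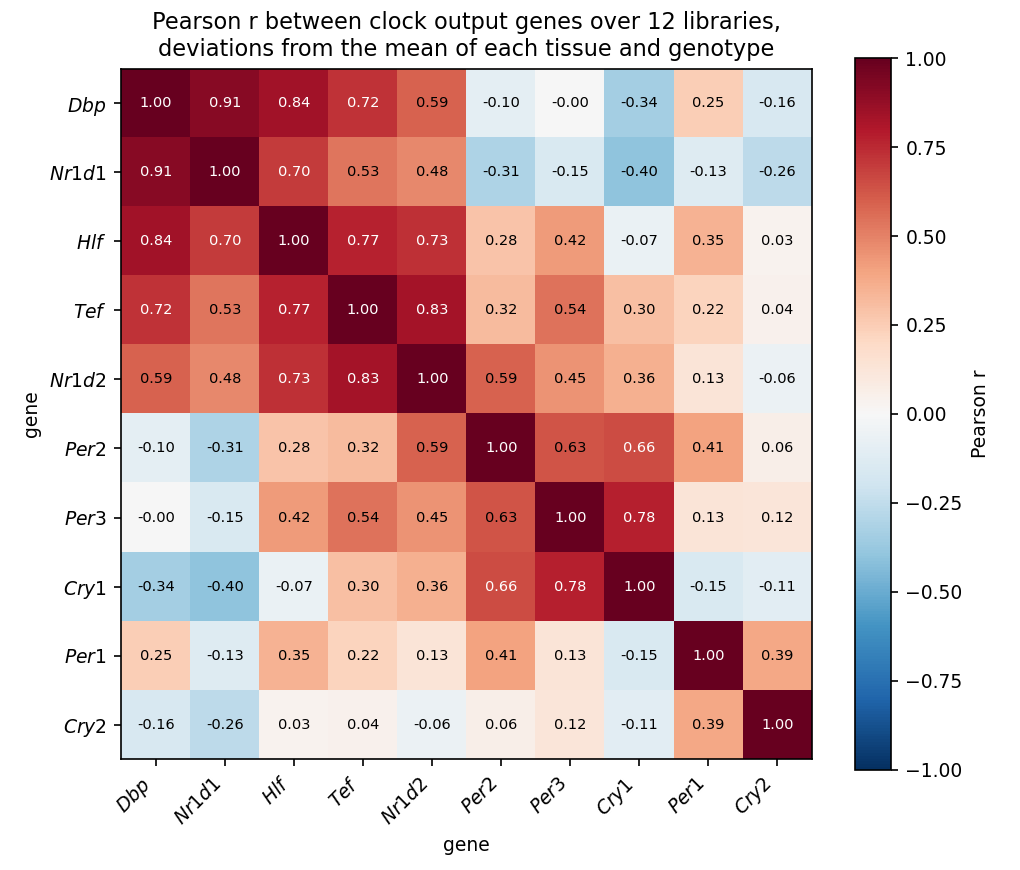
Pearson's r between the clock output genes over 12 libraries, on deviations of log2(FPKM + 0.1) from the mean of each tissue and genotype (colour scale from -1 to 1). *Dbp*, *Nr1d1*, *Hlf*, *Tef* and *Nr1d2* are positive with each other (0.48 to 0.91), as are *Per2*, *Per3* and *Cry1* (0.63 to 0.78).

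Among 11676 genes with a mean of at least 1 FPKM in both tissues, those whose pattern was most like that of the 10 outputs were found by the mean r with them, over 12 libraries on deviations from the mean of each tissue. Genotype means were not taken out here, so each r in this paragraph also holds the genotype difference. The 5 highest were *Cipc* (mean r 0.49), which encodes a repressor that binds CLOCK, *Fibp* (0.48), *Cyb5r4* (0.48), *Med16* (0.47), a subunit of the Mediator complex, and *Arhgef7* (0.47). The 5 lowest were *Rab3il1* (-0.46), *Kifc1* (-0.43), a mitotic kinesin, *Hoxb3* (-0.40), *Mt1* (-0.40), a metallothionein, and *Mettl27* (-0.40). The 10 outputs themselves were not uniform, as 30 of their 45 pairs had a positive r on this scale, with a median of 0.30 and a range from -0.61 to 0.88.

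The other clock genes were counted in the same comparisons. Of the activating arm, 0 of 6 passed in lung and 0 of 5 in spleen. In lung *Clock* had 3.73, 3.40 and 3.84 FPKM in β3-/- mice, against 5.31, 4.53 and 5.39 FPKM in WT mice, a log2 difference of -0.46 (limma adjusted p = 0.23). Its β3-/- values lay wholly below its WT values, as 12.6% of all genes did. In spleen *Bmal1* stood at -0.30 (adjusted p = 0.18) and *Rora* at 0.25 (adjusted p = 0.31).

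Of 11 clock modulators (kinases, ubiquitin ligases and repressors), 2 rose in β3-/- spleens (3.66% of all genes did), 0 fell, and 0 passed in lung. At an unadjusted p under 0.05 in limma, 4 of the 11 were higher and 0 lower in lung (4.95% and 7.7% of all genes). In spleen 2 were higher and 1 lower at that p (9.67% and 26.3% of all genes). *Nfil3*, the repressor at the D-box, had 9.995, 4.20 and 6.13 FPKM in β3-/- spleens, against 2.43, 2.18 and 1.88 FPKM in WT spleens, a log2 difference of 1.52 (SE 0.30, limma adjusted p = 0.035). *Btrc*, a subunit of the ubiquitin ligase that marks PER proteins for degradation, had 22.0, 16.0 and 13.5 FPKM in β3-/- spleens, against 10.7, 8.64 and 8.45 FPKM in WT spleens, a log2 difference of 0.86 (SE 0.19, adjusted p = 0.042). Each passed in 10 of 19 alternatives, and with 1 library left out neither passed except without β3-/- mouse 2 (in the 5 other cases the adjusted p was 0.067 to 0.13 for *Nfil3* and 0.065 to 0.16 for *Btrc*). In lung *Nfil3* stood at 0.88 (9.26, 5.74 and 5.07 FPKM in β3-/- lungs, against 4.22, 3.05 and 3.21 FPKM in WT lungs, adjusted p = 0.24) and *Bhlhe41*, an E-box repressor, at 0.46 (adjusted p = 0.31). *Ciart*, a further repressor of CLOCK and BMAL1, was chosen after its values were seen: it had 19.8, 22.5 and 17.8 FPKM in β3-/- lungs, against 7.22, 13.7 and 16.5 FPKM in WT lungs (log2 difference 0.75, adjusted p = 0.37). In the mean of both tissues *Nfil3* alone of the 11 passed, where 1.99% of all genes rose and 1.38% fell, with a log2 difference of 1.20 (SE 0.25, adjusted p = 0.048), which held in 5 of 17 alternatives and, with 1 mouse left out, only without β3-/- mouse 2 (adjusted p of 0.063 to 0.15 in the 5 other cases).

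Of 17 tested genes that cycle in several mouse tissues, 0 passed in lung and 0 in spleen. Their medians were 0.09 in lung and 0.02 in spleen, against -0.02 and -0.16 over all genes. *Cdkn1a*, a cell cycle inhibitor, had the largest moderated t in both (log2 difference 0.59, adjusted p = 0.12 in lung and 0.67, adjusted p = 0.068 in spleen), followed by *Fmo2*, a monooxygenase, in lung (-0.32, adjusted p = 0.30). Between tissues, 12 of the 17 were higher and 4 lower in lung, as 38% and 40.5% of all genes were. Signals that can set the phase of tissue clocks were counted as well. Of 13 genes induced by glucocorticoids, 0 passed in lung (median 0.37, against -0.02 over all genes), where *Cdkn1a* and *Ddit4* (0.99, adjusted p = 0.19) had the largest moderated t. In spleen 2 of the 13 rose, where 3.66% of all genes did (median 0.42, against -0.16 over all genes): *Il1r2*, a decoy receptor of interleukin 1, by 1.32 (adjusted p = 0.031) and *Mt2*, a metallothionein, by 2.09 (adjusted p = 0.042). The list was not uniform, as 10 of the 13 differences in spleen were positive. Those of *Tsc22d3* (-0.39), *Fkbp5* (-0.28) and *Ddit4* (-0.16), genes chosen after their values were seen, were negative. At an unadjusted p under 0.05 in limma, 5 of the 13 were higher and 0 lower in lung (4.95% and 7.7% of all genes). In spleen 6 were higher and 0 lower at that p (9.67% and 26.3% of all genes). In the mean of both tissues *Dusp1*, a phosphatase of MAP kinases, rose by 0.63 (adjusted p = 0.047).

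Of 9 temperature-responsive genes, 0 passed in either tissue, with *Hspb1* at 0.62 (adjusted p = 0.13) and *Dnajb1* at -0.24 in lung, and *Hspb1* at 0.52 (adjusted p = 0.15) and *Rbm3*, a protein induced by cold, at -0.20 in spleen. In the spleen of β3-/- mouse 1, *Hspa1a* had 63.3 and *Hspa1b* 65.5 FPKM, against 1.53 to 3.11 FPKM for both in the other 5 spleens. These near-identical heat shock genes, chosen after their values were seen, can share reads, and their part in the clock values of that library was not tested. Of 10 immediate early genes, 0 passed in lung, where *Junb* (0.74, adjusted p = 0.17) and *Jun* (0.36, adjusted p = 0.24) had the largest moderated t. In spleen 1 fell, where 5.39% of all genes did, *Egr3*, which is induced by antigen receptors, with 5.44, 7.29 and 4.49 FPKM in β3-/- mice, against 12.5, 14.5 and 11.98 FPKM in WT mice (log2 difference -1.19, SE 0.18, limma adjusted p = 0.025), and it also fell in the mean of both tissues (-0.99, adjusted p = 0.048). These calls sit near the threshold: *Il1r2* and *Mt2* passed in 10 and *Egr3* in 12 of 19 alternatives in spleen, and in the mean *Dusp1* and *Egr3* each passed in 6 of 17. With 1 library left out of the spleen comparison, *Il1r2* and *Mt2* passed only without β3-/- mouse 2 (adjusted p of 0.056 to 0.095 and of 0.092 to 0.14 in the 5 other cases), and *Egr3* passed without β3-/- mouse 2 or WT mouse 1 (0.055 to 0.11 in the 4 other cases). In the mean, *Dusp1* and *Egr3* passed only without β3-/- mouse 2 when 1 mouse was left out (0.104 to 0.13 and 0.080 to 0.15 in the 5 other cases).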

How the data were processed

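The submitters' processing notes name Trimmomatic (read trimming), HISAT2 (alignment), featureCounts (counting) and the build GRCm39. The values deposited by the authors are FPKM per gene, 1 file per library, and the tool that computed them is not given in the sources used here. The methods name TRIzol for RNA isolation, whereas RNeasy columns of Qiagen and a SMARTER mRNA kit stand in the labels. All 12 libraries were used, grouped by the genotype and tissue labels.

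The log2 of FPKM plus 0.1 was taken for genes that reached 0.1 FPKM in 3 or more of 6 libraries per tissue, which all 10 genes passed in both tissues. Comparisons used limma-trend (limma 3.58.1, R 4.3.3), Benjamini-Hochberg adjusted over all genes tested, with a threshold of 0.05. Fold changes are on the log2(FPKM + 0.1) scale, which understates those of low genes. Agreement of lung and spleen used an exact permutation over 720 pairings, two-sided. The limma scripts were tested on simulated data. Gene coordinates are from GENCODE. Files hold 1 measured column each, and none was left out.

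Lung and spleen of a genotype and number are 1 animal by the methods, and the deviations of such pairs correlated at 0.03 to 0.17. No source ties a β3-/- mouse to the WT mouse of its number. Replicates are separate mice. The genes, the gene lists and the tests were chosen with earlier results of these data known. The text names all 10 genes, and of every other list each gene past the threshold, or the 2 with the largest moderated t where none passed and the 4 where more than 4 passed. Of the lung and spleen comparison only the activating arm is named. Some genes that this rule would name are not reported here. Alternatives were pseudocounts, filters, scalings, limma without trend, library weights, a replicate block, a fit of all libraries, *Ubb* as a term, and libraries left out. Alternatives for genes outside the 10, for single genes between tissues, and without both spleens (or mice) with pancreatic transcripts were added after seeing the data.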

Additional observations from a re-analysis of the deposited data

How the results depend on the processing

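In lung 0 of the 10 genes passed under all 18 alternatives, and between tissues the genotype difference passed for 0 under all 16. Against spleen, all 10 remained higher in lung under all 16 alternatives. In spleen the count was 4 after rescaling to TPM, where 713 of all 15480 genes passed as higher and 5345 as lower. It was 2 with all 12 libraries in 1 fit, 1 with library weights, and 0 to 1 with 1 library left out. In the mean of both tissues it was 4 in TPM, where 473 of all 14445 genes passed as higher and 3729 as lower. It was 1 with a filter at 1 FPKM, 1 with library weights, and 0 to 1 with 1 mouse left out. Apart from TPM, the share of all genes that passed is not given for these settings, so their counts cannot be set against it. The count at an r of at least 0.8 was 1 with median-of-ratios scaling, 1 with quantile normalization and 0 to 3 with 1 mouse left out. The share of all genes at that r was not counted under these settings. Sign changes touched only log2 differences that did not pass. In lung, *Tef* was -0.0475 in TPM, -0.038 with quantile normalization, -0.0540 with *Ubb* as a term and -0.12 to 0.12 with 1 library left out, *Nr1d2* was 0.00417 with median-of-ratios scaling, 0.023 with library weights and -0.13 to 0.042 with 1 left out, and *Hlf* was -0.061 to 0.27 with 1 left out. In spleen with median-of-ratios scaling *Per3* was 0.046, *Dbp* 0.0099, *Hlf* 0.043 and *Nr1d2* 0.055, and *Nr1d2* was 0.017 with quantile normalization. In the mean, *Hlf* was -0.13 in TPM and -0.10 to 0.10 with 1 mouse left out, and with median-of-ratios scaling *Tef* was 0.028 and *Nr1d2* 0.030. The cause was not tested. In lung TPM gave 45 higher and 12 lower genes, against 47 and 5 in FPKM. Same-numbered β3-/- and WT mice share only a number (their deviations correlated at -0.04 to 0.27), and with the replicate number as a block the counts were 0 in lung, 0 in spleen and 0 in the mean; with the mouse as a block, 10 passed between lung and spleen and 0 for the difference between tissues. Leaving out the spleen with acinar markers over 10 times the median gave 0, as did leaving out both spleens or both mice with such transcripts. The depth of the libraries is unknown, so precision rests on 3 mice per genotype.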
